A study of Mus musculus with 6 samples.

Results

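Transcripts of 8 genes of B cells, plasma cells and immunoglobulin transport were measured in adult olfactory epithelium, the odour-sensing lining of the nasal cavity: Igj, Pigr, 2010001M09Rik (now Mzb1), Pou2af1, Cd79a, Cd79b, Xbp1 and Tnfrsf17. They were taken by symbol, and each of the 8 had a row among the 21881 distinct symbols of the table. All 8 had a mean of at least 0.5 FPKM (a fragment count divided by transcript length and by library size) and were among the 15067 genes tested. The genes were chosen by their KO and WT FPKM values, that is with the difference between the genotypes known, so the KO and WT values of the 8 genes are given as a description, without a test.

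The KO mice were NKCC1-/-, a genotype at Slc12a2, the gene of a cotransporter of sodium, potassium and chloride, and the mice they were set against were wild type (WT), all on the NMRI background. The labels name neither the allele nor an exact age. Each genotype had 3 pooled libraries: a mixed pool with 2 epithelia from each sex, a male pool from 3 mice and a female pool from 3 mice. The labels describe no sorting of cells, and in such bulk samples fewer cells of a type and less RNA per cell cannot be told apart. Depth, estimated from the size of the smallest FPKM steps, was 3520000 to 3950000 fragments in the mixed pools and 11100000 to 14350000 in the male and female pools. Slc12a2 was at 28.04, 16.1 and 18.01 FPKM in the KO mixed, male and female pools, against 83.3, 40.2 and 35.99 FPKM in the WT pools. The groups did not overlap. Its adjusted p was 0.11 in limma, 0.043 with the female share as a covariate, 0.0039 without the WT female pool, and 0.0039 to 0.62 over 16 alternatives, of which 3 called it.

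Plasma cells are the antibody-secreting end stage of B cells. In mucosal tissues many secrete IgA as a dimer held together by the joining (J) chain, and the polymeric immunoglobulin receptor of the overlying epithelial and gland cells carries this dimer to the surface. B cells carry their antigen receptor with the signalling pair CD79a and CD79b, and on becoming plasma cells they enlarge the endoplasmic reticulum under the transcription factor XBP1. Among the 21881 symbols, the only chain gene with a symbol beginning with Igh, Igk or Igl was that of the surrogate light chain, Igll1. Other heavy and light chain genes could therefore not be analysed here, and the J chain stands as the measured part of the secreted antibody. Igll1 was at 0.323 FPKM in the KO mixed pool and listed at 0 in the KO male and female pools, against 0.181 FPKM in the WT male pool and a listing at 0 in the WT mixed and female pools.

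The promoters of 4 of the genes are shown because Igj, Pigr and Pou2af1 had no overlap between the genotypes and because the motif matches differ between the genes. Each is the 250 bases before the transcription start in RefSeq, build GRCm38.p6, read 5′ to 3′ on the strand of the gene. The Igj sequence lies at chr5:88527898-88528147 on the minus strand, that of Pigr at chr1:130826434-130826683, that of Pou2af1 at chr9:51213440-51213689 and that of Tnfrsf17 at chr16:11313559-11313808, the last 3 on the plus strand. Capitals mark matches to 4 motifs, sought on both strands.
Igj: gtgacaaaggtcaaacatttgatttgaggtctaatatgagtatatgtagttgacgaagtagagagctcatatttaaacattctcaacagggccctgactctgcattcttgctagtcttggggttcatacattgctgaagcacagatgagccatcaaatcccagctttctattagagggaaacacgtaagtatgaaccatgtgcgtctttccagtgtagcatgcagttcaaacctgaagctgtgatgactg
Pigr: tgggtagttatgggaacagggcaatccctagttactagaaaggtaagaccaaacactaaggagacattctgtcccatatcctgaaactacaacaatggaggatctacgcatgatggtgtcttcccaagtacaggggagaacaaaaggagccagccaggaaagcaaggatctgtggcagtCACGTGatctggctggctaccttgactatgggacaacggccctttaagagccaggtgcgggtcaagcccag
Pou2af1: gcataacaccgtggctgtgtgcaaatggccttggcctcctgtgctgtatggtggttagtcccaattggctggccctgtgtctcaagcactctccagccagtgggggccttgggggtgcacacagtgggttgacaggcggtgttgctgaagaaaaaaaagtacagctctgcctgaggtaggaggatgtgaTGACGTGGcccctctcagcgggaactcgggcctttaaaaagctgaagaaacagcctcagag
Tnfrsf17: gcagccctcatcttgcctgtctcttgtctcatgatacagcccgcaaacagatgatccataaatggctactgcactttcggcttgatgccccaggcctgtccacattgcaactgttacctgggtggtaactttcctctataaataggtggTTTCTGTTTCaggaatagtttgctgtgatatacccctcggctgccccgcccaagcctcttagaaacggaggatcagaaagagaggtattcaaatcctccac
The motifs were the octamer ATGCAAAT, which is bound by the OCT factors that the Pou2af1 protein assists, the unfolded protein response element TGACGTGG, the E-box CACGTG and the interferon response core, which is the word GAAA repeated after any 2 bases. Among 32851 RefSeq promoter windows of the same 250 bases, 1.601, 0.563, 6.02 and 2.98% held them. In Pigr the E-box began 71 bases before the start. In Pou2af1 the unfolded protein response element began 61 bases before the start. The capitals in Tnfrsf17, 101 to 92 bases before the start, are the interferon response core on the opposite strand. The Igj window held none of the 4 motifs, nor did those of Cd79a and Xbp1. No match overlapped another, and a match describes the letters only. Of the 8 genes, these 6 had an entry in the RefSeq promoter table.

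Igj, Pigr and 2010001M09Rik were each several times as abundant in the KO pools as in the WT pools, and the KO and WT values did not overlap. Pou2af1 differed in the same direction at a lower level. The KO mean of Xbp1 was 1.31 times the WT mean, and the B cell receptor genes Cd79a and Cd79b overlapped between the genotypes.

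Igj, the J chain, was at 186, 366 and 147 FPKM in the KO mixed, male and female pools, against 21.5, 72.02 and 42.7 FPKM in the WT pools. The groups did not overlap, and the male pool was the highest library of each genotype. Its mean was 233 ± 117 FPKM in KO and 45.4 ± 25.4 FPKM in WT (SD, n = 3 each), a log2 change of 2.38 ± 0.40 (SE) on the log2(FPKM + 1) scale. That scale is used for every log2 change here and understates the change of low genes.

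2010001M09Rik, which encodes an endoplasmic reticulum protein of marginal zone B cells and plasma cells that helps antibody assembly, was at 7.95, 18.4 and 9.91 FPKM in the KO mixed, male and female pools, against 1.77, 5.57 and 2.55 FPKM in the WT pools. All KO pools lay above all WT pools. The mean was 12.1 ± 5.58 FPKM in KO and 3.298 ± 2.01 FPKM in WT, a log2 change of 1.62 ± 0.37. The KO to WT ratio of FPKM was close to even over the pools, at 4.48, 3.31 and 3.89 for mixed, male and female pools, where for Igj it was 8.64, 5.09 and 3.45.

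Pigr, the epithelial receptor that transports dimeric IgA, was at 228, 406 and 256 FPKM in the KO mixed, male and female pools, against 34.3, 138 and 64.6 FPKM in the WT pools. Again no KO pool was as low as any WT pool. The mean was 296 ± 95.7 FPKM in KO and 78.8 ± 53.1 FPKM in WT, a log2 change of 2.07 ± 0.41, and the KO to WT ratio was 6.63, 2.95 and 3.96 for mixed, male and female pools.

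**Figure D1:**
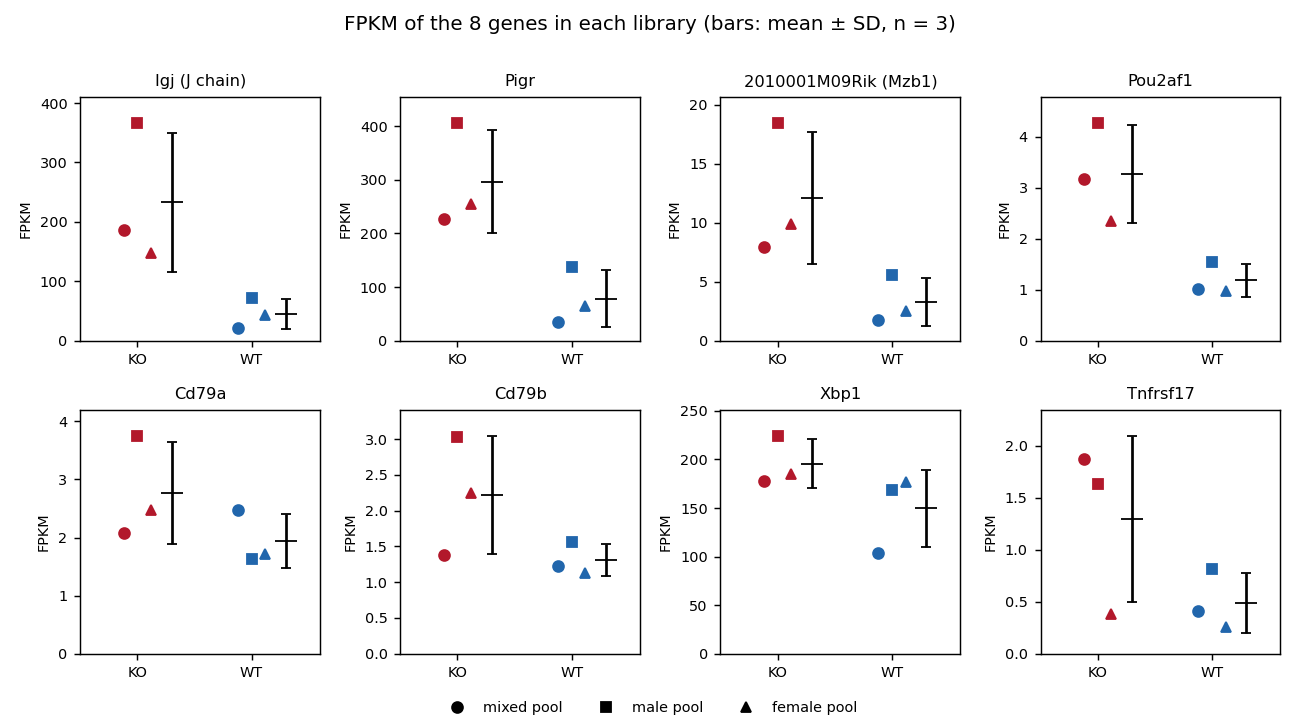
FPKM of each of the 8 genes (vertical axes, linear, from 0) in the KO and WT libraries, with a symbol for each pool and the mean ± SD of the 3 pools beside them. Igj, Pigr, 2010001M09Rik and Pou2af1 have all KO pools above all WT pools, Xbp1 does so by 177.8 against 177.05 FPKM, and Cd79a, Cd79b and Tnfrsf17 overlap.

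Of the regulators, Pou2af1, a coactivator that B cells need for their response to antigen, was at 3.16, 4.26 and 2.35 FPKM in the KO mixed, male and female pools, against 1.02, 1.55 and 0.981 FPKM in the WT pools. The groups did not overlap, and the log2 change was 0.95 ± 0.26. Xbp1, which drives the secretory expansion of plasma cells and is also used by gland cells, was at 178, 224 and 185 FPKM in the KO mixed, male and female pools, against 104, 168 and 177 FPKM in the WT pools. The lowest KO pool, at 177.8 FPKM, barely exceeded the highest WT pool, at 177.05 FPKM. The log2 change of Xbp1 was 0.41 ± 0.26, and it was 0.17 without the WT mixed pool and 0.24 without both mixed pools. With libraries scaled by their median ratio, Xbp1 overlapped, at 160.4 in the lowest KO library and 231 in the highest WT library.

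The values of the B cell receptor pair overlapped between the genotypes. Cd79a was at 2.07, 3.75 and 2.48 FPKM in the KO mixed, male and female pools, against 2.48, 1.64 and 1.71 FPKM in the WT pools, so the KO mixed pool was below the WT mixed pool. Cd79b was at 1.38, 3.03 and 2.25 FPKM in the KO pools, against 1.23, 1.56 and 1.13 FPKM in the WT pools, and the KO mixed pool lay inside the WT range. The log2 changes were 0.34 ± 0.26 for Cd79a and 0.45 ± 0.26 for Cd79b. The Cd79a value rested on the male KO pool, without which it was 0.16, and was 0.60 without both mixed pools. Without the male KO pool Cd79b was at 0.27.

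Tnfrsf17, the receptor BCMA through which long-lived plasma cells receive survival signals, had the lowest level of the 8 genes. It was at 1.88, 1.63 and 0.385 FPKM in the KO mixed, male and female pools, against 0.407, 0.814 and 0.257 FPKM in the WT pools, and the KO female pool lay below the WT mixed and male pools. With an annotated length of 815 nt, these values correspond to about 4.9, 14.3 and 3.0 fragments in the KO pools and 1.0, 7.8 and 1.9 fragments in the WT pools. The log2 change of 0.57 ± 0.28 was 0.90 without the KO female pool, 0.37 without the KO mixed pool, 0.34 without both mixed pools and 1.11 with a pseudocount of 0.1. Cd79a, by comparison, had about 10.7 to 64.8 fragments in the KO pools and 11.4 to 30.7 in the WT pools. These numbers are estimates, and counting error alone is large at such depth.

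All KO pools lay above all WT pools for 5 of the 8 genes, and for 7.46% of all tested genes. Under median ratio scaling and under upper quartile scaling it was 4 of the 8, without Xbp1, beside 11.3 and 11.98% of all genes. The contrast was known when the list was made, and nothing is read from these shares. Ordered by log2 change among all 15067 genes, Igj was at place 19, Pigr at 31, 2010001M09Rik at 54 and Pou2af1 at 172 from the top, and the other 4 lay between places 719 and 1880.

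The pools of 1 kind can be set against each other, with 1 library on each side and hence no test. Many genes shifted together between such libraries. The median difference of all tested genes, KO minus WT, was -0.25, -0.20 and 0.48 for mixed, male and female pools on the log2(FPKM + 1) scale. Against that shift, Igj differed by 3.05, 2.33 and 1.76, Pigr by 2.69, 1.55 and 1.97, 2010001M09Rik by 1.69, 1.56 and 1.62 and Pou2af1 by 1.04, 1.05 and 0.76, in the same order of pools. Igj, Pigr and 2010001M09Rik lay above the 95th percentile of all genes in each kind of pool, which was 0.64, 0.37 and 1.16. Pou2af1 lay above it in the mixed and male pools only. The genes were chosen with these KO and WT values known, so their places against all genes are a description. In the female pools Xbp1, at 0.07, Tnfrsf17, at 0.14, and Cd79a, at 0.36, lay below the median of all genes. The WT female library had 45.7% of its summed FPKM in its 10 most abundant genes, and the other 5 had 15.5 to 34.4%. Without that library the log2 changes of Igj, Pigr, 2010001M09Rik and Pou2af1 were 2.42, 2.04, 1.54 and 0.89.

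**Figure D2:**
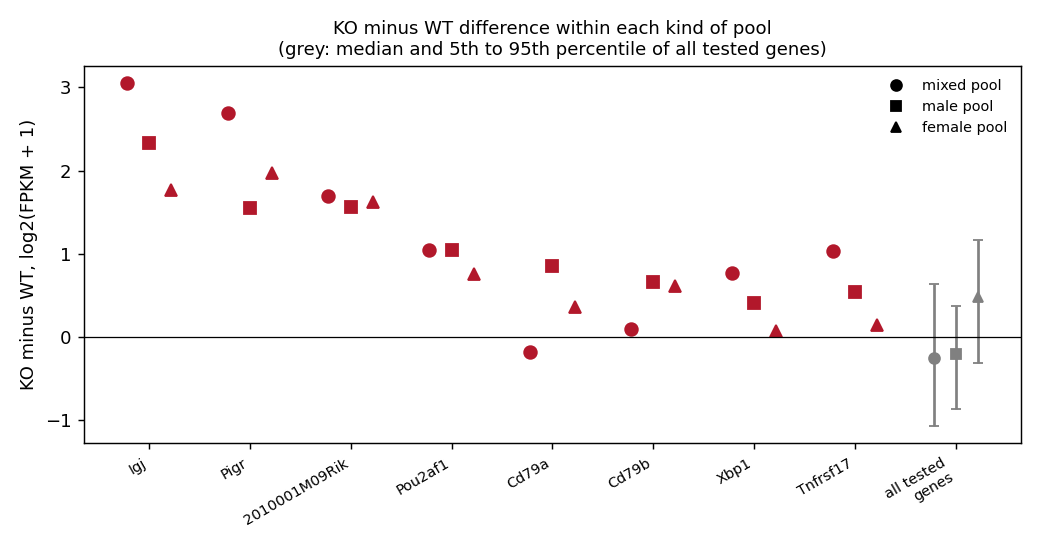
Difference of log2(FPKM + 1), KO minus WT, of each gene within the mixed, male and female pools (symbols), with the median and the 5th to 95th percentile of all tested genes in grey. Igj, Pigr and 2010001M09Rik lie above the grey range in each kind of pool, while Cd79a, Xbp1 and Tnfrsf17 fall below the grey median of 0.48 in the female pools.

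In WT epithelium the 8 genes spanned a wide range of levels. Xbp1 came first at 149.8 ± 39.8 FPKM and Pigr second at 78.8 ± 53.1 FPKM, followed by Igj at 45.4 ± 25.4 FPKM. 2010001M09Rik was at 3.298 ± 2.01, Cd79a at 1.94 ± 0.47, Cd79b at 1.304 ± 0.22, Pou2af1 at 1.18 ± 0.32 and Tnfrsf17 at 0.493 ± 0.29 FPKM (SD, n = 3). The WT ranges of neighbours in this order overlapped, except between Igj and 2010001M09Rik, between Cd79a and Cd79b, and between Pou2af1 and Tnfrsf17. In KO, Pigr was first at 296 ± 95.7 FPKM, Igj second at 233 ± 117 FPKM and Xbp1 next at 196 ± 24.9 FPKM, and neighbours in this order overlapped. Libraries were treated with duplex-specific nuclease, which lowers the most abundant transcripts, so the levels of Igj, Pigr and Xbp1, which lay above the 97th percentile of all tested genes, may be compressed relative to the low genes.

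Ratios of FPKM between genes of the same library do not depend on how a library was scaled. Igj over Pigr was 0.817, 0.903 and 0.576 in the KO pools (mixed, male, female), against 0.627, 0.524 and 0.661 in the WT pools, and these ranges overlapped. Igj over 2010001M09Rik was 23.4, 19.9 and 14.9 in the KO pools, against 12.1, 12.9 and 16.8 in the WT pools, again with overlap. Igj over Pigr thus lay between 0.524 and 0.903 over libraries in which Igj itself ran from 21.5 to 366 FPKM. Igj over Cd79a was 89.8, 97.7 and 59.5 in the KO pools, against 8.67, 43.96 and 24.9 in the WT pools, and did not overlap. Pigr over Xbp1 was 1.28, 1.81 and 1.38 in the KO pools, against 0.329, 0.817 and 0.365 in the WT pools, also without overlap. The J chain was therefore higher in KO relative to the B cell receptor chain, and the receptor Pigr relative to Xbp1. These ratios use the values that chose the genes and are descriptions.

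**Figure D3:**
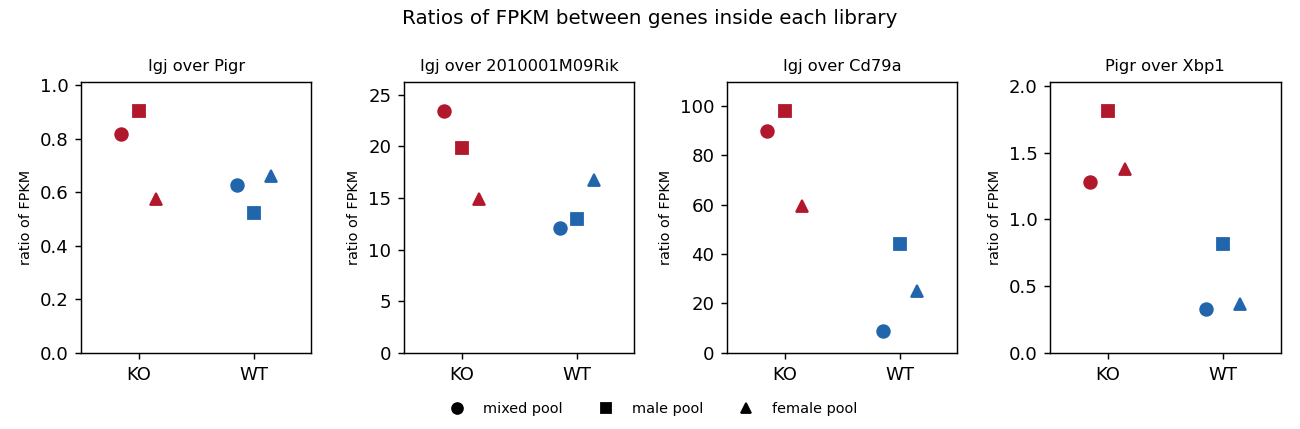
Ratio of FPKM between pairs of genes inside each library (vertical axes, linear, from 0), KO and WT, with a symbol for each pool. Igj over Pigr and Igj over 2010001M09Rik overlap between the genotypes, while Igj over Cd79a lies between 59.5 and 97.7 in KO and between 8.67 and 43.96 in WT, and Pigr over Xbp1 between 1.28 and 1.81 in KO and between 0.329 and 0.817 in WT.

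Genes of the other steps of the pathway were taken from 6 lists of 128 genes, of which 95 were tested. Lists of B cell genes, plasma cell genes, homing and survival signals, Fc and immunoglobulin receptors, inducers of Pigr, and the unfolded protein response with endoplasmic reticulum folding were used. In the limma fit over all genes, 0 of the 95 were called in either direction, where 0.212% of all genes were called higher and 0.624% lower. At an unadjusted p under 0.05, 17 of the 95 were past, 16 higher and 1 lower in KO, where 8.88% of all genes were past, 4.26% higher and 4.62% lower. The median log2 change of all genes was 0.01.

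Of the B cell genes, 11 of 27 were tested, and the median log2 change was 0.23 with 8 positive. Ms4a1 and Pax5, which are defining B cell genes, were near the bottom of the scale. Ms4a1 (CD20) was at 0.26 to 0.75 FPKM in KO and 0.30 to 0.94 FPKM in WT, and Pax5 at 0 to 0.06 FPKM in KO and 0 to 0.08 FPKM in WT. Spib, an ETS factor of B cells that is also found in other cells, was at 4.35 ± 1.46 FPKM in KO and 1.71 ± 0.31 FPKM in WT (log2 change 0.95 ± 0.27, adjusted p = 0.17 in limma). Over 16 alternatives the adjusted p of Spib ran from 0.028 to 0.54, and 3 called it, among them those without the WT mixed pool (0.028) and without both mixed pools (0.033). Ly86, the partner of a Toll-like receptor homologue, was at 7.16 ± 0.77 and 4.05 ± 1.15 FPKM in KO and WT, and the adaptor Blnk at 15.5 ± 3.77 and 11.6 ± 3.13 FPKM in KO and WT, neither past the threshold (adjusted p = 0.37 and 0.87 in limma). Faim3, a receptor for IgM on B cells that was named after its values were seen, was the 1 gene lower in KO at an unadjusted p under 0.05. It was at 0.353, 0.503 and 0.353 FPKM in the KO mixed, male and female pools, against 1.54, 0.892 and 0.955 FPKM in the WT pools, without overlap (log2 change -0.59, adjusted p = 0.32 in limma). In these libraries Ms4a1, Cd79a and Cd79b were at a small fraction of the FPKM of Igj, but not every B cell gene was. Vpreb3 was at 15.2, 24.9 and 39.4 FPKM in the KO mixed, male and female pools, against 23.5, 27.7 and 12.7 FPKM in the WT pools, with overlap. In the WT mixed pool Vpreb3 lay above Igj, which was at 21.5 FPKM there.

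Of the plasma cell genes, 12 of 16 were tested, with 11 positive and a median of 0.39. Irf4 and Prdm1, factors that set the plasma cell state, were low, and both were picked here with their values known. Irf4 was at 1.07, 0.798 and 0.567 FPKM in the KO mixed, male and female pools, against 0.309, 0.312 and 0.244 FPKM in the WT pools. Prdm1 was at 0.990, 0.652 and 0.911 FPKM in the KO pools, against 0.461, 0.423 and 0.283 FPKM in the WT pools. Neither overlapped, and neither passed (adjusted p = 0.44 and 0.60 in limma). The more abundant Sdc1 (syndecan-1), at 18.7 ± 3.66 FPKM in KO and 12.5 ± 2.31 FPKM in WT, and the disulfide isomerase Txndc5, at 68.2 ± 11.2 FPKM in KO and 47.7 ± 3.49 FPKM in WT, are also made by epithelium (adjusted p = 0.55 and 0.51 in limma). Derl3, of the retrotranslocation machinery, was at 22.7 ± 6.18 FPKM in KO and 16.4 ± 4.73 FPKM in WT and overlapped. All KO pools lay above all WT pools for 4 of the 12 tested genes, where 7.46% of all tested genes showed this. The other 8 overlapped, among them Derl3 and the secretory genes Sec11c, Fkbp11, Ell2 and Creld2. The pattern was not particular to this list. All KO pools also lay above all WT pools for 7 of 9 tested macrophage genes and 8 of 13 tested gland and secretory genes. It held for 2 of 7 T cell and 1 of 8 sustentacular genes, and for 0 of 8 plasmacytoid dendritic cell and 0 of 12 mature neuron genes.

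Homing and survival genes had a median log2 change of 0.50, with 8 of 11 tested positive and 0 called. Ccr10, the receptor that brings IgA plasma cells to mucosa, was at 1.71, 1.79 and 2.10 FPKM in the KO mixed, male and female pools, against 0.209, 0.944 and 0.427 FPKM in the WT pools. The groups did not overlap (log2 change 0.94 ± 0.24, adjusted p = 0.11 in limma). Its ligand gene Ccl28 was listed at 0 in every library. Itgb7, an integrin chain of gut-homing lymphocytes, was at 5.16 ± 1.07 FPKM in KO and 2.22 ± 1.14 FPKM in WT (adjusted p = 0.24 in limma, 0.00628 without the WT mixed pool, 0.019 without both mixed pools, and 0.00628 to 0.64 over 16 alternatives). The integrin gene Itga4 went the other way, at 0.990, 0.802 and 0.874 FPKM in the KO mixed, male and female pools. In the WT pools Itga4 was at 2.81, 1.16 and 0.630 FPKM, with overlap (log2 change -0.33). Cxcl13 and Cxcr4 also had negative log2 changes, at -0.22 and -0.07. Tgfb1, which promotes the switch to IgA, was at 10.4 ± 2.30 FPKM in KO and 5.97 ± 1.67 FPKM in WT (adjusted p = 0.41 in limma). The plasma cell survival factor genes Tnfsf13 (APRIL) and Cxcl12 overlapped, Tnfsf13 at 22.1 to 27.2 FPKM in KO and 14.3 to 22.2 FPKM in WT, and Cxcl12 at 43.5 to 55.8 FPKM in KO and 43.8 to 49.1 FPKM in WT.

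Of the Fc and immunoglobulin receptors, 9 of 10 were tested, 8 were positive, and the median was 0.26. Fcgr2b, the inhibitory IgG receptor, was at 8.09 ± 1.28 FPKM in KO and 3.81 ± 0.74 FPKM in WT (adjusted p = 0.16 in limma, 0.045 and 0.042 under median ratio and upper quartile scaling, and 0.042 to 0.51 over 16 alternatives). Fcgr3 was at 6.53 ± 0.73 FPKM in KO and 3.24 ± 0.36 FPKM in WT, and Fcamr, a receptor for IgA and IgM, at 5.89 ± 0.70 FPKM in KO and 2.70 ± 1.05 FPKM in WT (adjusted p = 0.21 for each in limma). Fcgrt, the neonatal Fc receptor for IgG, went the other way without passing, at 22.1 to 35.1 FPKM in KO and 30.3 to 32.8 FPKM in WT.

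Genes of the signals known to raise Pigr had a median of 0.34, and all 15 tested of 19 were positive with 0 called. These 15 were receptors and factors downstream of them. The cytokine genes Ifng, Il4, Il17a and Tnf averaged under 0.5 FPKM and were not tested. Ifng was listed at 0 in every library. Il4 and Il17a averaged 0.121 and 0.0516 FPKM in KO, against 0.258 and 0.0965 FPKM in WT. Tnf was at 0.909 ± 0.842 FPKM in KO and 0.0618 ± 0.107 FPKM in WT. Tnfrsf1a, a receptor for TNF, was at 37.3 ± 6.49 FPKM in KO and 24.98 ± 5.16 FPKM in WT (adjusted p = 0.47 in limma), Irf1 at 11.7 ± 1.90 and 8.14 ± 2.72 FPKM in KO and WT, and Relb at 3.95 ± 0.58 and 2.55 ± 0.86 FPKM in KO and WT. The unfolded protein response and folding list had a median of 0.26, with 33 of 37 positive and 0 called. Kdelr3, which returns folding factors to the endoplasmic reticulum, was at 16.2 ± 3.08 FPKM in KO and 8.60 ± 2.44 FPKM in WT (adjusted p = 0.23 in limma, 0.025 without the WT female pool, and 0.025 to 0.70 over 16 alternatives). Ssr2, of the translocon, and Syvn1, a ubiquitin ligase of the endoplasmic reticulum, were at 82.04 ± 10.2 and 24.9 ± 2.19 FPKM in KO, against 58.5 ± 8.70 and 17.8 ± 5.14 FPKM in WT. The chaperone Hspa5 (BiP) was at 278, 341 and 334 FPKM in the KO mixed, male and female pools, against 225, 306 and 257 FPKM in the WT pools, and overlapped.

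Summed levels of some other cell types also differed between the genotypes. The 9 tested of 10 macrophage genes were all positive with a median of 0.65, 0 called and 7 higher at an unadjusted p under 0.05, where 4.26% of all genes were, and their FPKM summed to 707 to 820 in KO and 377 to 672 in WT without overlap. Among them were Lyz2, at 635 ± 33.4 FPKM in KO and 418 ± 142 FPKM in WT, and C1qa, at 38.98 ± 14.4 FPKM in KO and 21.7 ± 4.28 FPKM in WT. Gland and secretory genes had a median of 0.81, with 12 of 13 tested positive, 0 called and 6 higher at an unadjusted p under 0.05, and a sum of 10557 to 17269 FPKM in KO and 8792 to 14620 FPKM in WT. Ltf, lactoferrin, was at 465 ± 133 FPKM in KO and 176 ± 85.7 FPKM in WT (adjusted p = 0.068 in limma). Over 16 alternatives the adjusted p of Ltf ran from 0.00022 to 0.56, and 5 called it, among them those with the female share as a covariate (0.019), without the WT mixed pool (0.0061), without the WT male pool (0.017) and without both mixed pools (0.0017). Plunc, the largest part of the sum, was at 13173 ± 3350 FPKM in KO and 11525 ± 2971 FPKM in WT. Relative to Ltf, Pigr was at 0.640, 0.951 and 0.417 in the KO pools, against 0.246, 0.502 and 0.564 in the WT pools, with overlap. The mature neuron list summed to 4345 to 6457 FPKM in KO and 7741 to 11845 FPKM in WT, with a median of -0.86, and 12 of 12 genes were negative. Of these 9 were lower at an unadjusted p under 0.05, where 4.62% of all genes were, and 1, Kirrel2, was called (adjusted p = 0.035 in limma), where 0.624% of all genes were. Omp was at 1480.4 ± 460 FPKM in KO and 2568 ± 665 FPKM in WT, and S100a5 at 1313 ± 249 FPKM in KO and 3372 ± 546 FPKM in WT. T cell genes summed to 8.04 to 11.8 FPKM in KO and 4.99 to 9.16 FPKM in WT, with Lat at 1.42 ± 0.12 and 1.31 ± 0.84 FPKM and Cd3g at 1.68 ± 0.34 and 0.769 ± 0.53 FPKM in KO and WT. The list for plasmacytoid dendritic cells, which share secretory genes with plasma cells, summed to 98.8 to 163 FPKM in KO and 76.1 to 155 FPKM in WT. Klk1 was at 57.98 ± 37.5 and 53.3 ± 38.0 FPKM and Ly6d at 32.2 ± 11.2 and 18.3 ± 5.55 FPKM in KO and WT. Klk1 alone gave 97.1 of the 155 FPKM in the WT mixed pool, and 14.8 of the 98.8 FPKM in the KO female pool. Siglech of the same list was at 0.0657 to 0.221 FPKM in KO and 0.153 to 0.237 FPKM in WT. The sum is therefore not read as a level of these cells. Sustentacular genes overlapped at 8333 to 14181 FPKM in KO and 9297 to 12816 FPKM in WT, with Cyp2a5 at 4489 ± 1192 and 5076 ± 459 FPKM and Cbr2 at 2762 ± 889 and 2612 ± 636 FPKM in KO and WT. The part of these cells in the values of the 8 genes was not tested.

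**Figure D4:**
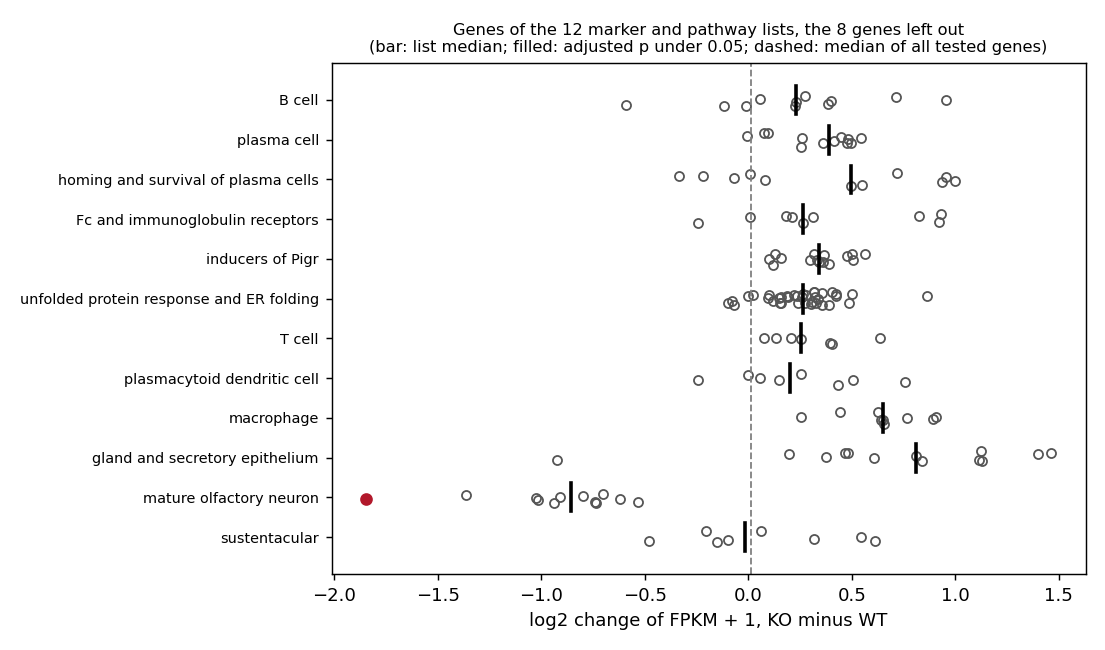
Log2 change of each tested gene, KO minus WT (horizontal axis), in the 6 pathway lists and the 6 lists of other cell types, with the list median as a bar and the median of all genes, 0.01, as a dashed line. The pathway medians lie between 0.23 and 0.50 with 0 filled points, the gland list at 0.81, and the mature neuron list at -0.86 with the single called gene.

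The difference between the sexes was not used to choose the genes and was tested in all 6 libraries with genotype in the fit, by how FPKM followed the female share of each pool (0, 50 or 100%). The coefficient was negative, that is lower with a higher female share, for each of the 8 genes. Igj had -1.02 ± 0.40 (95% interval -1.85 to -0.20), Pigr -0.87 ± 0.42 (-1.73 to -0.01), 2010001M09Rik -0.86 ± 0.44 (-1.75 to 0.03) and Tnfrsf17 -0.73 ± 0.33 (-1.40 to -0.06). Pou2af1 had -0.51 ± 0.37, Cd79b -0.29 ± 0.37, Cd79a -0.21 ± 0.39 and Xbp1 -0.10 ± 0.38. None of the 8 passed, with an adjusted p of 1 for each in limma, where 0.0996% of all genes were called, 0.0664% lower and 0.0332% higher. Igj, Pigr and Tnfrsf17 had an unadjusted p under 0.05 (limma, 0.017, 0.047 and 0.034), as did 0.743% of all genes.

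The male pool was above the female pool in both genotypes for 6 of the 8 genes, where 8.43% of all tested genes showed this. For Igj, the male to female ratio of FPKM was 2.49 in KO and 1.69 in WT, for Pigr 1.59 in KO and 2.13 in WT, and for 2010001M09Rik 1.86 in KO and 2.19 in WT. The exceptions were Cd79a and Xbp1, with ratios of 1.51 and 1.21 in KO and 0.957 and 0.950 in WT. These ratios also carry the general shift between libraries. The median FPKM of all tested genes was 6.94 and 9.10 in the KO male and female pools, against 8.32 and 5.75 in the WT male and female pools. The male pool was the highest of the 3 pools in both genotypes for 5 of the 8, Igj, Pigr, 2010001M09Rik, Pou2af1 and Cd79b, where 2.69% of all genes showed this. The 8 genes vary together and each sex has 1 pool of its own in a genotype, so the genes do not count as separate evidence. The Pigr coefficient rested on the WT male pool, without which it was -0.17, and that of Igj was then -0.66. Without the same pool that of 2010001M09Rik was -0.53, while without the WT female pool those of Igj and Pigr were -1.73 and -1.32. Without the KO female pool the Tnfrsf17 coefficient was -0.37. The coefficients of Cd79a and Xbp1 turned positive, to 0.10 and 0.08, without the KO male pool, and that of Xbp1 was 0.09 without the WT male pool.

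**Figure D5:**
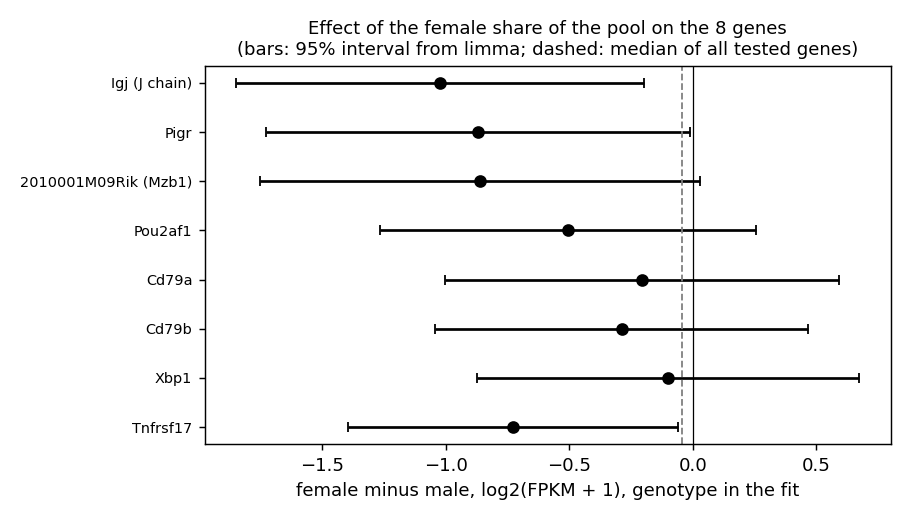
Female share coefficient on the log2(FPKM + 1) scale (horizontal axis, female minus male) for each gene, with its 95% interval from limma and the median of all tested genes, -0.04, as a dashed line. All 8 points lie left of 0, from -1.02 for Igj to -0.10 for Xbp1, and 3 intervals, those of Igj, Pigr and Tnfrsf17, do not reach 0.

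Whether the KO difference itself varied with sex was tested by the product of genotype and female share, with 2 residual degrees of freedom. The coefficients ran from -0.57 for Igj to 0.42 for Pigr, with adjusted p of 0.71 to 0.97 in limma, and 0 of the 8 were called, where 0.126% of all genes were. The interval for Igj was -2.10 to 0.97 and for Pigr -1.20 to 2.03. The median of all genes was 0.71 in this fit and 0.02 after median ratio scaling. After that scaling the 8 coefficients ran from -1.40 for Igj to -0.42 for Pigr, with 0 called of the 8 or of all genes in limma and 143 of all genes at an unadjusted p under 0.05.

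The genes whose profile over the 6 libraries was most like that of Igj, by the root mean square difference of mean-centred log2(FPKM + 1) among 13877 genes, began with Pigr (0.27) and 2010001M09Rik (0.46). They were followed by Cldn2, a claudin of leaky tight junctions (0.56), Mrgprg, an orphan receptor of the Mas-related family (0.57), and Apol10a, of the apolipoprotein L family (0.61). Pou2af1 was at place 40, Xbp1 at 388, Cd79b at 493 and Cd79a at 1357 for Igj. The 8 genes were chosen with the KO difference known, and the measure takes in that difference. The nearness of Igj, Pigr and 2010001M09Rik to each other was therefore partly fixed in advance. For Pigr the first 5 were Igj (0.27), 2010001M09Rik (0.32), the chemokine genes Ccl17 (0.46) and Ccl8 (0.47), and Mrgprg (0.49). Cldn2 was at 12.9 ± 6.08 FPKM in KO and 3.76 ± 1.59 FPKM in WT, and Apol10a at 2.86 ± 1.02 FPKM in KO and 0.0817 ± 0.012 FPKM in WT. Mrgprg was at 3.87, 3.59 and 3.97 FPKM in the KO pools, against a listing at 0, 0.502 and 0.157 FPKM in the WT pools. Ccl17 was at 1.96, 4.75 and 4.43 FPKM in the KO pools, against a listing at 0, 2.15 and 0.951 FPKM in the WT pools. Ccl8 was at 8.25, 10.4 and 12.4 FPKM in the KO pools, against a listing at 0, 8.79 and 1.49 FPKM in the WT pools, so both chemokine genes overlapped and were lowest in the WT mixed pool.

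The genes nearest to Xbp1 by the same measure were P4hb, protein disulfide isomerase (0.05), Rcn1, a calcium-binding protein of the endoplasmic reticulum (0.06), Bcat2, a mitochondrial aminotransferase (0.09), Nme2, a nucleoside diphosphate kinase (0.09), and Psat1, of serine synthesis (0.09). P4hb was at 341 ± 44.4 FPKM in KO and 262 ± 63.04 FPKM in WT. Rcn1 was at 28.1 ± 3.20 FPKM in KO and 20.9 ± 5.77 FPKM in WT, Bcat2 at 36.7 ± 0.88 and 27.6 ± 7.53 FPKM, Nme2 at 186 ± 28.4 and 147 ± 37.8 FPKM and Psat1 at 29.7 ± 1.86 and 23.7 ± 6.15 FPKM in KO and WT. The measure takes in the size of a change as well as its shape. The profiles share the same 6 libraries with their depths and genotypes, and these likenesses are descriptions.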

How the data were processed

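Per the labels' protocols, RNA from pooled epithelia was treated with DNase on the column and libraries were normalised with duplex-specific nuclease. The deposited table holds FPKM, a unit inferred from its header and values and from the programs. Per the submitters' processing notes these were Cufflinks 1.3.3, Cuffdiff, TopHat2 2.0.7 and Bowtie, and the build was mm9. The scaling of the values is not given in the sources used here. Both columns naming no sex were taken as the mixed pools by elimination.

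Where a symbol had several of the 22310 rows, that with the largest mean stayed, which left out 429. Genes averaging 0.5 FPKM or more were tested on log2(FPKM + 1) by limma 3.58.1 (R 4.3.3) using a trended prior variance, Benjamini-Hochberg adjustment over 15067 genes and a threshold of 0.05. Counts were not used. Depth was estimated from the smallest FPKM steps of genes with 1 annotated transcript of at least 1200 nt (GENCODE on GRCm38, less 150 nt). Each library is a pool, and the labels do not say whether an animal is in more than 1 pool, so p-values measure the spread between pools. An exact 0 can be a failed estimate, and such genes are given as listed at 0.

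The 8 genes, the 12 lists, the motifs and the tests were chosen with earlier results of these data known. Named were the 8 genes, Slc12a2, up to 3 genes per pathway list (lowest p among those averaging 1 FPKM or more), the 2 most abundant tested genes of each other list, and the 5 genes most like Igj, Pigr and Xbp1. Other genes named were chosen after their values were seen. Tested on simulated data over 15067 genes, the genotype comparison found 15.4% of the genes given a log2 change of 1 and 78.2% of those given 2. Alternatives changed the pseudocount, filter, scaling, prior variance, libraries, and terms for pool and sex.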

Additional observations from a re-analysis of the deposited data

How the results depend on the processing

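The log2 changes of the 8 genes kept their sign under every alternative run, from 1.94 to 2.79 for Igj, 1.59 to 2.58 for Pigr, 1.299 to 1.98 for 2010001M09Rik, 0.79 to 1.38 for Pou2af1, 0.16 to 0.60 for Cd79a, 0.27 to 0.67 for Cd79b, 0.17 to 0.55 for Xbp1 and 0.34 to 1.11 for Tnfrsf17. The number of genes called between KO and WT, 126, was 209 with the female share as a covariate, 269 under median ratio and 277 under upper quartile scaling, 333 without both mixed pools, 0 without a filter (limma, 1603 at an unadjusted p under 0.05), and 42 to 573 with each library left out. It was 48 without the KO mixed, 42 without the KO female, 440 without the WT mixed and 573 without the WT female library. The 0 calls in the pathway lists became 1 under median ratio scaling (Fcgr2b), 2 under upper quartile scaling (Spib and Fcgr2b), 2 without both mixed pools (Spib and Itgb7) and 0 to 3 with each library left out. The calls by female share, 15, were 28 with a filter of 2 FPKM, 36 without both mixed pools, 0 to 50 with each library left out (0 without the KO female, 1 without the WT female and 34 to 50 without each other library), and 0 under median ratio scaling, upper quartile scaling and no filter (limma, 138, 130 and 227 at an unadjusted p under 0.05). The calls for the product, 19, were 12 with a pseudocount of 0.1 and 0 under median ratio scaling. The cause of these moves was not tested.

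The kind of pool is the replicate number here. KO and WT pools of the same number thus share their sex make-up. Deviations of same-kind pools correlated at 0.36 (mixed), 0.21 (male) and -0.09 (female), and these few values cannot decide whether the samples are paired. The main fit used no block. The replicate block gave 440 calls in all and 2 in the pathway lists, Ccr10 (adjusted p = 0.016 in limma, and 0.016 to 0.44 over 15 alternatives) and Il6. It also called Slc12a2 (0.0082), Ltf (0.00022), S100a5 (0.00092), Cldn2 (0.0028), Ccl17 (0.0012) and Ccl8 (9.29e-06), which the main limma fit did not. Each of these genes was also called by at least 1 alternative without the block.

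Signs turned under median ratio scaling for the product of Pigr (-0.42) and 2010001M09Rik (-0.65), and at a pseudocount of 0.1 for that of Cd79b (0.021). With each library left out, the female share coefficients of Cd79a and Xbp1 ran from -0.50 to 0.10 and from -0.49 to 0.086, and the log2 changes of Lat from -0.13 to 0.40, Plunc from -0.040 to 0.42, Cbr2 from -0.18 to 0.28 and Klk1 from -0.42 to 0.78. Klk1 was also at -0.017 and -0.00025 under median ratio and upper quartile scaling and at -0.0071 and -0.0038 with pseudocounts of 0.1 and 0.5. Depth limits Tnfrsf17 most, and then the other B cell genes under 1 FPKM.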
